A study of Oryza sativa with 6 samples.

Results

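Homeobox genes of rice were examined in seedlings of a CHR729 T-DNA mutant and of wild type. Members were the genes whose symbol or any synonym followed the rice names for knotted (KN, OSH, HOS), HD-Zip (HOX, ROC) or WOX (WOX, QHB) homeobox genes. In all, 54 genes of the gene table matched, and 49 of them had at least 1 probe set that named no other gene. These 49 genes were represented by 61 probe sets among 57258 tested probe sets, of which 22436 named exactly 1 gene. The knotted class had 9 genes (11 probe sets), the HD-Zip class 33 genes (42 probe sets) and the WOX class 7 genes (8 probe sets). OSH10, OSH15, OsHox3, Roc9 and OsWOX5 had no such probe set and are not analysed here, and neither are 2 probe sets that named a member together with other genes.

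Each of 6 samples was total RNA of seedlings 11 days old hybridised to its own Affymetrix Rice Genome Array, with 3 mutant and 3 wild-type samples. Both genotypes were germinated on agar medium with sucrose in a cycle of 14 h light and 10 h dark. Wild type was the cultivar Hwayoung, and the mutant samples carried the label of a CHR729 T-DNA mutation with no further allele, agent or treatment. The titles call the samples biological replicates. Whether 1 or several mutant lines were used, whether the plants were homozygous, how many seedlings made a sample and which organs were taken is not stated in the labels. CHR729 encodes a chromatin remodeller of the CHD family, and its own transcript is not analysed here because no probe set was paired with it.

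Homeobox genes encode transcription factors that bind DNA through a homeodomain. Class I knotted genes are known for keeping cells of the shoot apical meristem undifferentiated, whereas class II knotted genes are expressed more broadly, including in mature organs. HD-Zip proteins join the homeodomain to a leucine zipper. Their classes I and II are known mostly from responses to light and water supply, class III from the upper leaf side, vascular tissue and the meristem, and class IV, which holds the ROC genes, from the epidermis. WOX genes act in stem cell niches and organ founder cells.

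Array medians lay between 67.6 and 71.1 in MAS5 signal, the authors' linear intensity per probe set. Of the 61 homeobox probe sets, 32 lay above the median of their array on all 6 arrays and 20 on none. Probe sets whose group means both lie below the median are called dim here. The green leaf markers, which include the genes of the Rubisco small subunit and Rubisco activase, had summed signals of 35159 to 36275 on wild-type and 33111 to 36212 on mutant arrays. Root markers, such as the silicon transporter genes Lsi1 and Lsi2 and aquaporin genes, summed to 17396 to 19695 and 15483 to 17695. Of these 13 genes 4 lay below the median on all arrays, among them Lsi2. Aquaporin genes weighed most in the sum, with mean signals of 4523 for OsPIP2;1, 4403 for OsPIP2;6 and 3596 for OsPIP2;7. Lsi1 had 324 and Lsi2 18.2, so the sum is not taken as a measure of root tissue. Differences below are log2(signal + 32) in the mutant minus wild type, with the standard error (SE) of the limma model. P values are from limma with Benjamini-Hochberg adjustment across the 57258 tested probe sets, and a probe set was called at an adjusted p below 0.05.

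Of the 61 homeobox probe sets, 5 rose and 3 fell in the mutant, belonging to 4 genes that rose and 3 that fell. This is 13.1% of the members, against 9.91% called among all tested probe sets and 18.1% among those naming 1 gene. Of all tested probe sets 5.48% rose and 4.42% fell, and of those naming 1 gene 9.96% rose and 8.16% fell. The counts depended on which array was left out. They stayed at 5 and 3 without mutant replicate 1, where OsHox9 was lost and QHB added. Without wild-type replicate 3 they were also 5 and 3, with OsHox9 lost and OsHox5 added. Without mutant replicate 2, 2 homeobox probe sets rose and 1 fell, beside 1358 and 916 of all tested probe sets. Without mutant replicate 3 they were again 2 and 1, beside 1716 and 1071. The fit that left out wild-type replicate 2 gave 2 and 2, beside 1779 and 1356, and leaving out wild-type replicate 1 gave 5 and 5. The median difference over the homeobox probe sets was 0.02, with a range from -0.51 to 0.96, and it was 0.01 over all probe sets naming 1 gene. The groups did not overlap in 27 homeobox probe sets, or 44.3%, against 27.1% of all tested and 40.4% of those naming 1 gene. The share of homeobox probe sets called thus lay between both backgrounds, and no call lay in HD-Zip I or HD-Zip IV. Dim probe sets gave 1 of the 8 calls, from 22 dim members.

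**Figure D1:**
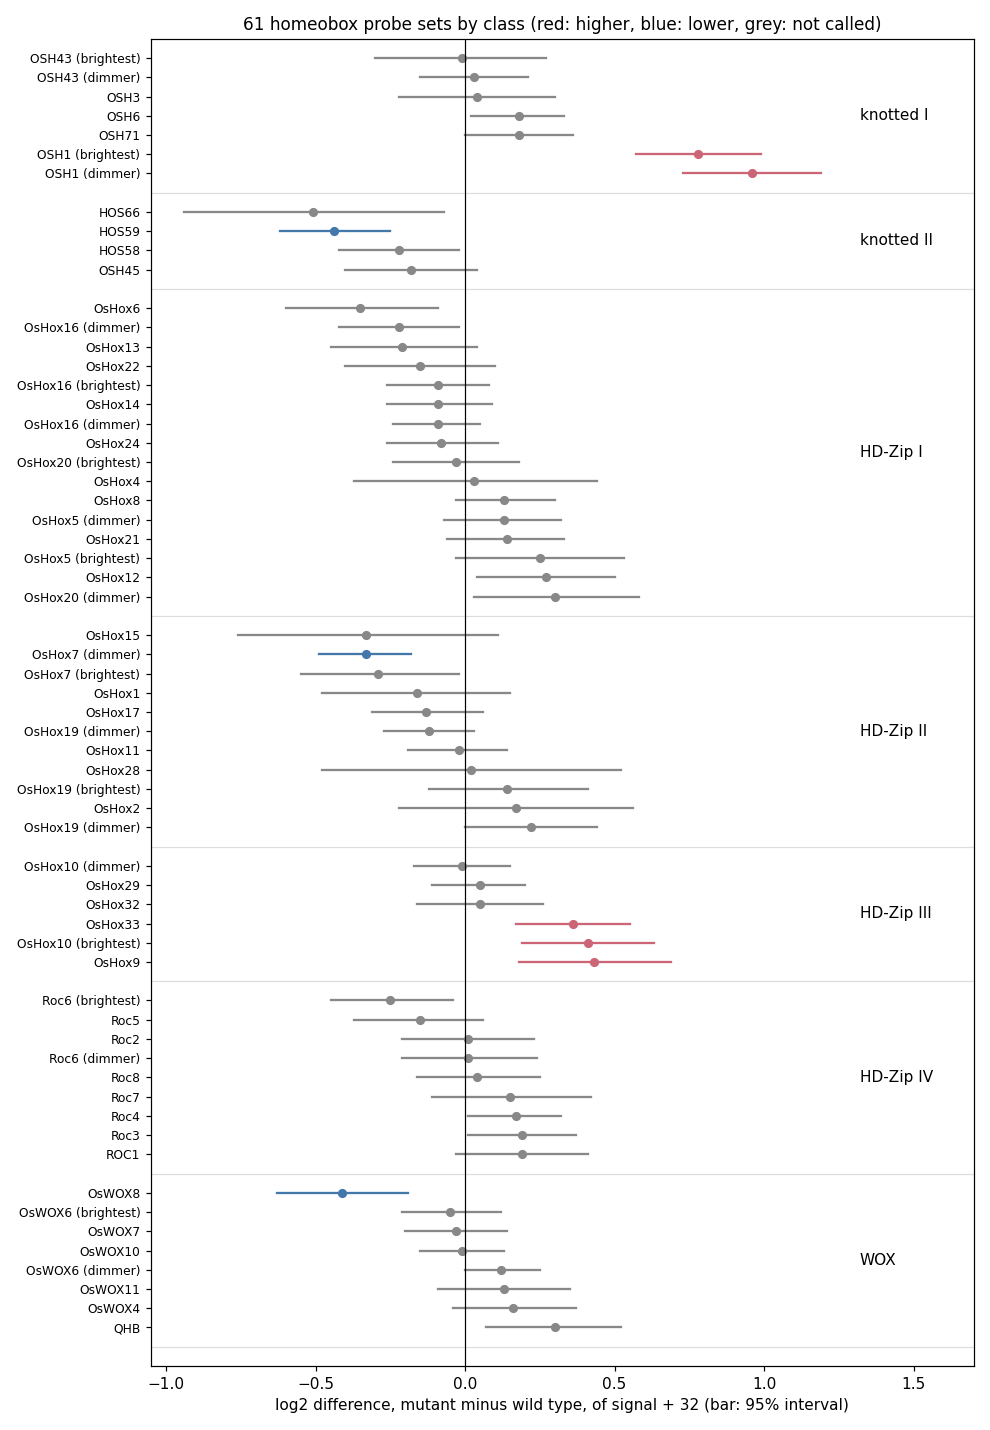
Log2 differences of all 61 homeobox probe sets, mutant minus wild type, by class; points are limma estimates, bars are 95% intervals, and colour marks calls at an adjusted p below 0.05. Both OSH1 probe sets lie to the right of all others, 3 HD-Zip III probe sets lie between 0.36 and 0.43, and all 4 class II knotted probe sets lie left of 0.

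OSH1, also named Oskn1, is a class I knotted gene required to maintain the shoot apical meristem. It rose in both of its probe sets. In the brighter one the signals were 72.5, 51.2 and 68.2 in wild type and 133, 136 and 127 in the mutant. The second gave 38.3, 20.4 and 26.4 in wild type and 82, 90.7 and 80.4 in the mutant. All 3 mutant arrays lay above all 3 wild-type arrays in both probe sets, and each mutant group spread less than its wild-type group. The log2 difference of the brighter probe set was 0.78 (SE 0.10, adjusted p = 0.00112, limma, n = 3 per group), or 1.72-fold. The second had 0.96 (SE 0.10, adjusted p = 0.00053), or 1.94-fold. Wild-type OSH1 signals were near or below the array median, so the size depends on the offset: with an offset of 1 the log2 differences were 1.05 and 1.58, and with an offset 4 times as large as the main one both were 0.44. OSH1 was called under each of these and when any 1 array was left out. The suffix of the brighter probe set marks probes that can also match other sequences, whereas the second carries no such mark. Markers of dividing cells also rose, in 16 of 22 genes as given below, and in bulk RNA of seedlings more cells of a type and more RNA per cell cannot be told apart.

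The other class I knotted genes were not called. OSH3, which lies beside OSH1 in the gene table with 1 gene between them, gave 77.9, 76.1 and 86.8 in wild type and 82.5, 106 and 65.8 in the mutant. Its groups overlapped, and its log2 difference was 0.04 with a 95% interval from -0.22 to 0.30. That interval lies below the OSH1 intervals of 0.57 to 0.99 and 0.73 to 1.19, and the difference between the genes was not itself tested. OSH43 had -0.01 (interval -0.30 to 0.27) in its brighter and 0.03 (interval -0.15 to 0.21) in its dim probe set. OSH6 gave 47.1, 51.1 and 50.8 in wild type and 62.9, 59.1 and 58.8 in the mutant, dim on every array but with no overlap between the groups. Its difference was 0.18 (SE 0.07, adjusted p = 0.155). OSH71, also named Oskn2, gave 49.7, 62.8 and 59.1 against 74.1, 67.1 and 65.4, again with no overlap and near the array medians, with a difference of 0.18 (SE 0.08, adjusted p = 0.232). Of the 7 class I probe sets, which cover 5 genes, 6 had a positive difference, and the median was 0.18. By the brightest probe set per gene 4 of 5 were positive, again with a median of 0.18.

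All 4 class II knotted genes had negative differences, and 1 of them was called. For comparison, 18.1% of all probe sets naming 1 gene were called and 8.16% fell. A positive difference was seen in 11512 of these 22436 probe sets. The 4 genes were not tested against these values. HOS59 fell from 4413, 4281 and 3992 in wild type to 3218, 3234 and 2887 in the mutant. The groups were well apart, and the log2 difference was -0.44 (SE 0.08, adjusted p = 0.0088), or 1.36-fold lower. HOS59 was called in every alternative, and its size did not depend on the offset (-0.44 and -0.43). HOS58 gave 1749, 1700 and 1935 in wild type and 1553, 1612 and 1436 in the mutant. These groups did not overlap, yet the difference of -0.22 (SE 0.09, adjusted p = 0.179) was not called. HOS66 gave 961, 1818 and 1584 in wild type and 1096, 984 and 870 in the mutant. Its low first wild-type array lay within the mutant range, and the difference was -0.51 (SE 0.20, adjusted p = 0.151). Its size rested on single arrays: HOS66 had -0.77 (adjusted p = 0.00444) without wild-type replicate 1 and -0.32 (adjusted p = 0.425) without wild-type replicate 2. OSH45 had overlapping groups and a difference of -0.18 (SE 0.10, adjusted p = 0.352). The class II median was -0.33, against 0.18 in class I, a contrast given as a description with no test.

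**Figure D2:**
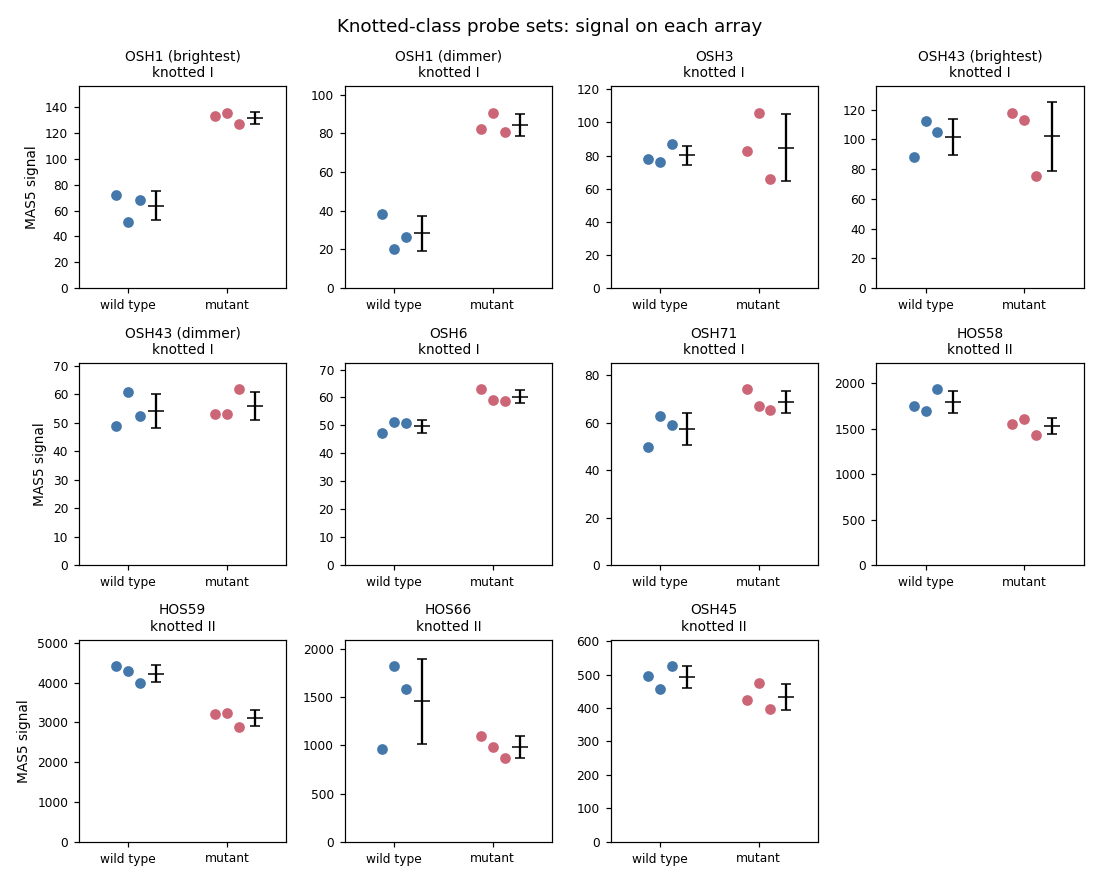
MAS5 signal of the 11 knotted-class probe sets on each array, wild type in blue and mutant in red; the black mark and bar are the mean and SD of 3 arrays, and each panel has its own linear axis from 0. The groups do not overlap in both OSH1 panels and in HOS59, which were called, nor in OSH6, OSH71 and HOS58, which were not. OSH3, OSH43, HOS66 and OSH45 overlap.

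HD-Zip class III held the other rises. Of its 5 genes 3 rose, each with no overlap between the groups in the probe set that was called. For comparison, 9.96% of all probe sets naming 1 gene rose, and the groups did not overlap in 40.4%. The lack of overlap was read in probe sets already called, so it adds no separate support to the calls. HD-Zip III was not tested against these shares. OsHox10, also named OsHB1, gave 476, 465 and 400 in wild type and 568, 608 and 634 in the mutant. Its log2 difference was 0.41 (SE 0.10, adjusted p = 0.0266), and a dim second probe set had -0.01 (adjusted p = 0.96). OsHox9, also named OsHB2, gave 510, 469 and 427 against 612, 581 and 748. The third mutant array was the highest, and the difference was 0.43 (SE 0.11, adjusted p = 0.0379). OsHox33, a gene linked in rice to leaf senescence, gave 221, 211 and 220 against 276, 291 and 298, with a narrow spread in both groups and a difference of 0.36 (SE 0.08, adjusted p = 0.023). OsHox32 had 0.05 (95% interval -0.16 to 0.26), and OsHox29 had 0.05 (interval -0.11 to 0.20) from a dim probe set. These rises were 1.28-fold to 1.35-fold, and none of the 3 calls held throughout. Leaving out mutant replicate 2, mutant replicate 3 or wild-type replicate 2 ended all 3 calls, at adjusted p of 0.0657 to 0.147. OsHox9 was also lost without mutant replicate 1 (adjusted p = 0.0707), without wild-type replicate 3 (adjusted p = 0.0814) and with array weights (adjusted p = 0.0559). The log2 differences of the calls lost when an array was left out lay between 0.33 and 0.50.

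**Figure D3:**
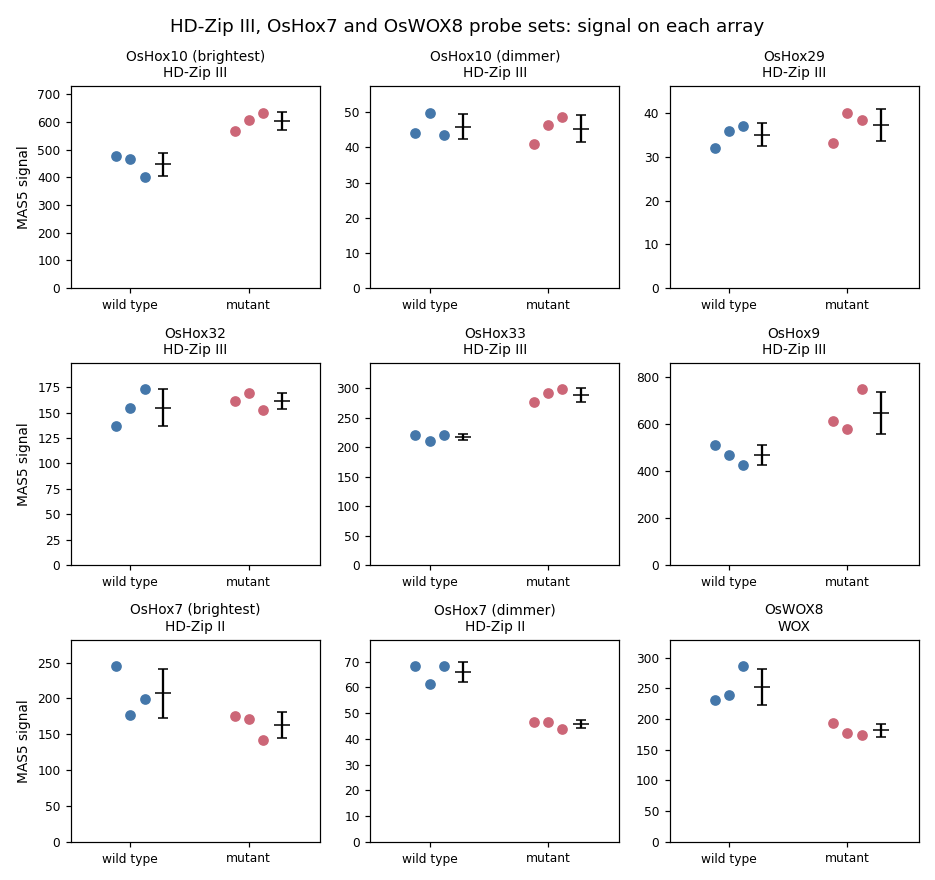
MAS5 signal on each array for the 6 HD-Zip III probe sets and those of OsHox7 (HD-Zip II) and OsWOX8 (WOX), wild type in blue and mutant in red; the black mark and bar are the mean and SD of 3 arrays, with a linear axis from 0 in each panel. The brighter OsHox10 probe set, OsHox33 and OsHox9 stand higher in the mutant, and OsWOX8 and the dim OsHox7 probe set stand lower.

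None of the 16 HD-Zip I probe sets was called by limma, and 4 had an unadjusted p below 0.05, beside 8069 of 22436 probe sets naming 1 gene. The HD-Zip I differences ran from -0.35 to 0.30 with a median of -0.05. OsHox6 was the furthest, with 217, 310 and 251 in wild type and 194, 196 and 194 in the mutant. The groups did not overlap, and the difference was -0.35 (SE 0.12, adjusted p = 0.0907). It was called without wild-type replicate 1 (-0.46, adjusted p = 0.0268) and had -0.23 (adjusted p = 0.255) without wild-type replicate 2. OsHox12, a gene known in rice from panicle exsertion through gibberellin breakdown, gave 82.6, 56.4 and 82.8 against 91.8, 96.1 and 96.5, with a difference of 0.27 (SE 0.11, adjusted p = 0.157). OsHox5 had 0.25 (SE 0.13, adjusted p = 0.295) in its brighter probe set, which was called without wild-type replicate 3 (0.39, adjusted p = 0.0332) and had 0.17 (adjusted p = 0.593) without wild-type replicate 2.

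The brightest HD-Zip I probe set was that of OsHox16, with 3546, 3556 and 3603 against 3431, 3450 and 3163, a difference of -0.09 (SE 0.08, adjusted p = 0.558). Another OsHox16 probe set had -0.22 (adjusted p = 0.175) and a dim one -0.09 (adjusted p = 0.476). OsHox4 varied by array within both genotypes, with 1238, 801 and 774 against 781, 918 and 1155. Its difference was 0.03 with a wide 95% interval from -0.37 to 0.44. OsHox22 and OsHox24, known from drought and abscisic acid responses, had -0.15 (adjusted p = 0.525) and -0.08 (adjusted p = 0.666), the latter dim. OsHox20 gave unlike values in its probe sets, -0.03 (adjusted p = 0.92) and 0.30 (adjusted p = 0.178). The remaining OsHox13, OsHox21, OsHox14 and OsHox8 had -0.21, 0.14, -0.09 and 0.13, the last pair dim.

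Among 11 HD-Zip II probe sets 1 was called (9.09%), beside 9.91% of all tested probe sets and 18.1% of those naming 1 gene. OsHox7 fell in a dim probe set from 68.2, 61.3 and 68.2 in wild type to 46.7, 46.6 and 43.8 in the mutant. The groups did not overlap, with a log2 difference of -0.33 (SE 0.07, adjusted p = 0.0145), or -0.52 with an offset of 1 and -0.16 with the larger offset. The brighter OsHox7 probe set gave 245, 177 and 199 against 176, 171 and 142, lower but not called, at -0.29 (SE 0.12, adjusted p = 0.181). The OsHox7 call was lost without mutant replicate 2 (adjusted p = 0.0667) and without mutant replicate 3 (adjusted p = 0.0653). OsHox28 and OsHox2 are direct neighbours in the gene table. OsHox28 gave 133, 169 and 324 in wild type and 222, 188 and 187 in the mutant, and OsHox2 gave 168, 229 and 331 against 269, 281 and 256. Both were highest on wild-type replicate 3 and lowest on wild-type replicate 1, their wild-type ranges enclosed the mutant values, and the differences of 0.02 and 0.17 were not called. OsHox15 also varied among wild-type arrays, with 531, 655 and 965 against 624, 602 and 437, and had -0.33 (SE 0.20, adjusted p = 0.388). OsHox19 had 0.14 and 0.22 in its brighter probe sets and -0.12 in a dim one. OsHox1, OsHox17 and OsHox11 had -0.16, -0.13 and -0.02. The median within-group SD on the log2 scale was 0.18 in HD-Zip II, against 0.11 over all homeobox probe sets.

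HD-Zip IV, the ROC genes of the epidermis, had no call among 9 probe sets, and 3 had an unadjusted p below 0.05 in limma. So did 8069 of the 22436 probe sets naming 1 gene. Roc6 gave 494, 487 and 547 in wild type and 434, 439 and 399 in the mutant, with no overlap and a difference of -0.25 (SE 0.09, adjusted p = 0.139), and a dim Roc6 probe set had 0.01. Roc3 gave 100, 96.1 and 96.7 against 106, 120 and 122, with a difference of 0.19 (SE 0.08, adjusted p = 0.202). Roc4, known in rice from cuticular wax synthesis, was dim at 48.7, 43 and 46.2 against 57.7, 52 and 56.8, with a difference of 0.17 (SE 0.07, adjusted p = 0.192). ROC1 had 0.19 (SE 0.10, adjusted p = 0.305) and Roc2 had 0.01 (95% interval -0.21 to 0.23). Roc5, known from the bulliform cells that roll the leaf, gave 1239, 1060 and 1020 against 992, 991 and 978. Its mutant arrays were all lower and almost equal, with a difference of -0.15 (SE 0.10, adjusted p = 0.412). Roc7 and Roc8 had 0.15 and 0.04.

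In the WOX class 1 of 8 probe sets was called (12.5%), and 5 probe sets lay below the median on every array. Of all tested probe sets 9.91% were called, and of those naming 1 gene 18.1%. OsWOX8, also named OsWOX13, fell from 231, 239 and 286 in wild type to 193, 177 and 174 in the mutant. The groups did not overlap, and the log2 difference was -0.41 (SE 0.10, adjusted p = 0.0266), or 1.33-fold lower. This call ended when mutant replicate 2 (adjusted p = 0.123), mutant replicate 3 (adjusted p = 0.103) or wild-type replicate 2 (adjusted p = 0.0597) was left out. QHB, a marker of the root quiescent centre, gave 52.8, 49.7 and 54.2 against 58.6, 69.8 and 87.8, with every mutant array higher and a wide mutant spread. Its difference was 0.30 (SE 0.10, adjusted p = 0.0989), and it was called without mutant replicate 1 (0.39, adjusted p = 0.0414) but had 0.19 (adjusted p = 0.304) without mutant replicate 3. OsWOX4, known from meristem maintenance and vascular tissue, gave 51.3, 69.6 and 69.2 against 77.5, 71.8 and 74, with a difference of 0.16 (SE 0.09, adjusted p = 0.345). OsWOX11, a regulator of crown root growth, was dim and had 0.13 (adjusted p = 0.531). OsWOX6, OsWOX7 and OsWOX10 were dim, with differences from -0.05 to 0.12, so a change in their transcripts may lie below what these arrays can show.

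The classes can be set side by side by their medians over all probe sets, which were 0.03 for knotted, 0.02 for HD-Zip and 0.06 for WOX, each near the 0.01 of all probe sets naming 1 gene. Calls made up 3 of 11 knotted (27.3%), 4 of 42 HD-Zip (9.52%) and 1 of 8 WOX (12.5%) probe sets, beside 9.91% of all tested probe sets and 18.1% of those naming 1 gene. The subclass medians were further apart, with 0.18 for class I and -0.33 for class II knotted genes and 0.21 for HD-Zip III. On single arrays, the median class II knotted value relative to the wild-type mean was -0.28, -0.27 and -0.43 in the mutant, and -0.01, -0.03 and 0.10 in wild type. For HD-Zip III it was 0.18, 0.20 and 0.24 in the mutant, and -0.01, 0.01 and -0.01 in wild type. For class I knotted genes it was 0.22, 0.16 and 0.13 in the mutant, and -0.05, 0.03 and 0.03 in wild type. Every mutant array of these subclasses lay outside the wild-type range, whereas the groups overlapped in HD-Zip I, HD-Zip II and HD-Zip IV. WOX ranges met at 0.05. These medians include the called probe sets, so they describe few genes and add no separate support to the calls.

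Genes that act with homeobox factors in the meristem and young leaf were described from lists, using the brightest probe set per gene. Of all probe sets naming 1 gene, 18.1% were called, with 9.96% rising and 8.16% falling. The share was 22.3% where the brighter group lay above the median, and no list was tested against these shares. OsRS2, the relative of a maize gene that represses knotted genes in leaf primordia, rose from 491, 441 and 523 in wild type to 701, 715 and 689 in the mutant. The groups did not overlap, with a difference of 0.51 (SE 0.09, adjusted p = 0.00787), and a dim OsRS2 probe set had 0.04 (adjusted p = 0.79). OsRS2 was the 1 gene called among 9 meristem and boundary genes (11.1%), whose median lay near 0. SHL2 and PLA3 had -0.33 (adjusted p = 0.0744) and -0.18 (adjusted p = 0.314). That list also took in OsAsp1 by its name alone. Of 10 growth-regulating factor genes, which control cell number in leaves, 3 (30.0%) rose and none fell, with a median of 0.22. OsGRF6 rose by 0.56, OsGRF1 by 0.49 and OsGRF8 by 0.42. Of 7 YABBY genes, known from leaf development, 1 (14.3%) was called. This was OsYAB5, which rose by 0.46 (adjusted p = 0.0282). All 7 had a positive difference, and the median was 0.20. OsYAB2 and OsYAB3 had 0.28 (adjusted p = 0.0889) and 0.35 (adjusted p = 0.191).

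Knotted proteins are known to raise cytokinin and lower gibberellin in the meristem. Of 13 cytokinin metabolism genes, 4 (30.8%) fell and none rose, with a median of -0.16, beside 18.1% called among probe sets naming 1 gene. The list joined LOG and LOGL genes of cytokinin activation with cytokinin oxidase genes of its breakdown. Its median thus has no single direction for cytokinin, and all 4 falls were LOG or LOGL genes. LOG, which encodes the enzyme that activates cytokinin in the shoot meristem, fell from 1988, 2029 and 1900 to 1239, 843 and 528. No mutant array reached the wild-type range, and the difference was -1.23 (SE 0.23, adjusted p = 0.00787). A much dimmer LOG probe set had -0.16 (adjusted p = 0.321). LOGL9, LOGL5 and LOGL3 of the same family fell by 1.13, 0.88 and 0.86. The other measured LOGL genes were not called. LOGL10 had 0.35, LOGL6 0.10, LOGL1 -0.16 and LOGL7 -0.24 in its brighter probe set. The cytokinin oxidase gene OsCKX5 had 0.49 (SE 0.23, adjusted p = 0.24). The gibberellin list held only GA20OX2 and GA20OX3, genes of gibberellin synthesis, with differences of 0.30 (adjusted p = 0.419) and 0.05 (adjusted p = 0.866). No gene of the table matched the names written for the BELL partners of knotted proteins or for the IPT genes of cytokinin synthesis.

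Markers of dividing cells were also higher in the mutant, and whether they vary with OSH1 or the HD-Zip III genes was not tested. Of 22 such genes, which encode replication proteins, cyclins and a cyclin-dependent kinase, 16 (72.7%) rose and none fell. Among all probe sets naming 1 gene, 9.96% rose and 8.16% fell. The median difference of the 22 genes was 0.53, and their summed signal was 4093 to 4681 on wild-type and 6280 to 7097 on mutant arrays. OsPCNA, the replication clamp gene, rose from 675, 535 and 604 to 982, 1208 and 1047. No mutant array fell within the wild-type range of the sum, and the part of these markers in the homeobox results was not tested. Of 13 root markers 15.4% were called, beside 18.1% of probe sets naming 1 gene. OsPIP2;5 rose by 0.51, and OsPIP2;7 fell with a difference of -0.78, from a mean of 4557 to 2636. A dimmer probe set of OsPIP2;1 rose by 0.57 (adjusted p = 0.0318). None of the 4 green leaf markers was called in its brightest probe set by limma, where 1 had an unadjusted p below 0.05. That gene is rca, the Rubisco activase gene, with -0.29 (adjusted p = 0.0707), and a further rca probe set fell by 0.45. Of 10 seed markers 1 (10.0%) fell, and their summed signal was 867 to 984 on wild-type and 769 to 816 on mutant arrays. The falling gene was GLUA2, from a mean of 369 to 244, and its dimmer probe set had 0.13. The median difference of the seed markers was 0.0, and 5 of the 10 lay below the median on all arrays.

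**Figure D4:**
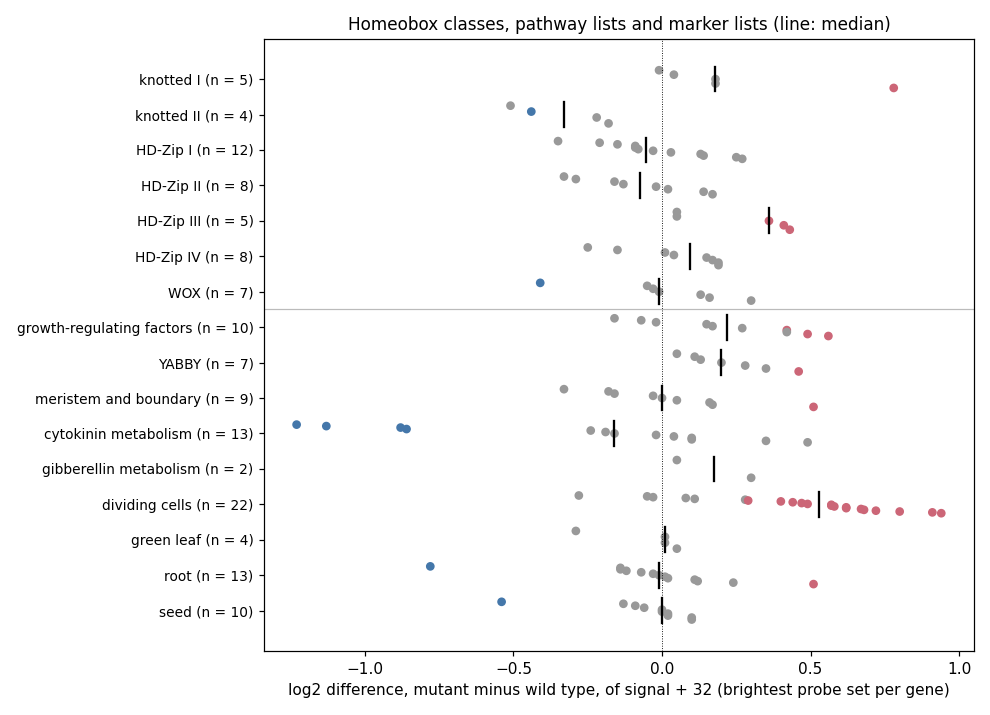
Log2 difference, mutant minus wild type, of the brightest probe set of each gene in the 7 homeobox subclasses and in the pathway and marker lists; red points rose, blue points fell, grey points were not called, and the black line is the median. The 22 dividing-cell genes have a median of 0.53 and the 13 cytokinin metabolism genes have 4 falls, whereas most homeobox points lie within 0.3 of 0.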

How the data were processed

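The deposited values are MAS5 signal intensities on a linear scale, 1 per probe set and array; the tool is named in the submitters' processing notes, and its version and settings, including the scaling target, are not stated there. Detection calls were not used. From these values, 123 control probe sets were left out, no dim probe sets were filtered, and log2(signal + 32) of 57258 probe sets was compared with limma 3.58.1 in R 4.3.3 (lmFit, eBayes with trend, 2-sided). Folds are antilogs of these differences, and the offset makes them smaller where signals are low. SDs are of 3 arrays, and their number limits the precision. A rank test of 3 against 3 arrays cannot give a p below 0.1.

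Probe sets were joined to genes by gene ID through the public array annotation, and names were taken from the RefSeq gene table of assembly ASM3414082v1 (Python 3.11.15, pandas 2.3.3). Of the member probe sets, 11 have a suffix (_x_at) and 3 a suffix (_s_at) that mark probes able to match several transcripts. Coordinates are not given because the array files name no build. Subclasses follow the published numbering of rice HD-Zip and knotted genes.

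Named genes were all knotted genes, all called members, and in each other class the 3 lowest p and the 3 brightest; other members were added after their values were seen, as were OsPCNA, OsAsp1 and markers given by name. The members and lists were chosen with earlier results of these data known. On simulated data with known changes, 26 of 50 changes of 1.5-fold and 47 of 50 of 2-fold were recovered, and 2.26% of calls were false. The changes were placed only in probe sets of above-median mean log2 signal. They gave 177 calls, against 5672 in the real data. The simulated rates thus do not cover dim members and are not taken as those of the homeobox results. The alternatives were offsets, normalizations, a filter, variance models, a replicate block and leaving out each array.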

Additional observations from a re-analysis of the deposited data

How the results depend on the processing

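The 5 rising and 3 falling homeobox probe sets were all called under both other offsets, quantile normalization, subtraction of array medians, the filter that left out the 40% dimmest probe sets and the fit with no intensity trend. With array weights the OsHox9 call ended (adjusted p = 0.0559). With the replicate number as a block 2 probe sets rose, both of OSH1, and 3 fell; OsHox10, OsHox33 and OsHox9 then had adjusted p of 0.052, 0.054 and 0.0602. Same-numbered mutant and wild-type arrays had correlations of 0.00663, -0.166 and 0.0905 between their deviations from the group means, and not every array correlated best with its own number, so the numbers were not taken as pairs. Leaving out 1 array gave 2 to 5 rising and 1 to 5 falling homeobox probe sets, and over all tested probe sets 1358 to 3511 rising and 916 to 2838 falling, the cause of which was not tested. OSH1 and HOS59 were called in every alternative. Averaging the probe sets of a gene gave 3 rising and 2 falling genes, with OsHox10 and OsHox7 no longer called. Alternatives were computed for the 35 probe sets of the genes named by rule. Among the uncalled ones of these, signs turned with array weights for OsHox4 (-0.02) and the brighter OSH43 probe set (0.05). Signs also turned when 1 array was left out, where the differences ranged from -0.11 to 0.25 for OsHox4, from -0.04 to 0.03 for the dim OsHox10 probe set, from -0.07 to 0.07 for Roc2, from -0.09 to 0.12 for the dim Roc6 probe set, from -0.08 to 0.16 for OSH3, and from -0.01 to 0.09 and from -0.10 to 0.14 for OSH43. For dim probe sets, which include most WOX genes, small signals over background limit what can be seen.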
